A study of Sus scrofa with 23 samples.

Results

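GBP1, GBP2, UBD and TNFSF10 are 4 of the 6765 genes named on a pig expression array, and they were followed over 23 arrays of pig bone marrow-derived macrophages. They were chosen by gene symbol, after their levels on these same arrays were known to vary widely, and 6 of the 23999 probe sets carry their names: 3 for GBP1 and 1 for each of the others. A probe set is the group of spots whose combined brightness, here a log2 intensity, reads 1 transcript. The cells came from 3 large White x Landrace F1 pigs, were grown from bone marrow with recombinant human CSF1, a macrophage growth factor, and were given lipopolysaccharide (LPS) of Salmonella at 100 ng/ml. The labels put 6 arrays at 0 h (unstimulated), 6 at 2 h, 6 at 7 h and 5 at 24 h of LPS. Each pig supplied 2 cultures at each time, with a single one for pig 3 at 24 h.

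All 4 genes belong to the response of macrophages to interferons, the cytokines that macrophages themselves release after LPS is sensed by toll-like receptor signalling. GBP1 and GBP2 encode guanylate-binding proteins, large GTPases that in human and mouse cells coat bacteria and pathogen vacuoles in the cytosol and help the cell detect LPS there. UBD encodes FAT10, a ubiquitin-like protein that is joined to other proteins and sends them to the proteasome. TNFSF10 encodes TRAIL, a ligand of the tumour necrosis factor superfamily that triggers death receptors on target cells. In the Sscrofa11.1 assembly GBP2 and GBP1 are neighbours on chromosome 4, with no protein-coding gene between them, while UBD lies on chromosome 7 and TNFSF10 on chromosome 13. GBP1 and GBP2 are related in sequence, and whether their probe sets also bind transcripts of other family members was not tested.

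The labels of the arrays failed 2 checks, which bears on every result here. The Y-linked gene EIF1AY, whose product acts in translation initiation, had a log2 intensity of 8.16 to 9.45 on 15 arrays and of 3.60 to 4.08 on 8, and it went against the labelled sex on 8 of the 23. Each labelled pig held arrays of both levels. Of the 22 arrays that have a duplicate culture by their labels, 0 resembled it more than any other array. The 11 mutually nearest pairs of arrays all carried the same pig label, and 0 of 11 carried the same time label. The groups below are therefore arrays as labelled: differences between labelled times are not differences between times of LPS exposure, nor are differences between labelled pigs differences between animals. The labelled cell type was checked with 10 macrophage markers, of which 7 were named on the array. The lysosomal protease gene CTSS lay between 14.19 and 14.43, AIF1, a calcium-binding protein gene, between 12.62 and 13.36, the LPS co-receptor gene CD14 between 7.13 and 11.00, and the scavenger receptor genes CD163 and MRC1 between 7.85 and 11.36 and between 6.20 and 8.71. MARCO kept to 5.58 to 6.15 and ITGAM to 4.39 to 5.03. Of the T cell genes, the receptor chain genes CD3E, CD3D and CD3G stayed at or below 4.99, 6.31 and 4.79, while CD2 reached 10.45.

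Levels of the 4 genes did not pass a test of difference between labelled times. The limma F test over the 12 pig-by-time means, with pig as a term, called 2 of 23999 probe sets (0.00833%) and 0 of the 4 genes. Each of them had a Benjamini-Hochberg adjusted p of 1 in that limma test, and unadjusted p-values ran from 0.671 for GBP2 to 0.873 for UBD. Of the 12 differences from 0 h (4 genes at 3 later times), 0 passed, against 0.0125% of probe sets called at 2 h, 0% at 7 h and 0.00417% at 24 h. These p-values do not show that the levels were alike. Because the labels failed the checks above, the test also cannot decide whether the 4 genes changed with LPS. The differences from 0 h had SEs of 0.46 to 0.87 log2 units. After adjustment over 23999 probe sets, differences of that size and clearly larger ones could go uncalled.

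GBP1 had its lowest, median and highest log2 intensity at 6.67, 11.76 and 13.52 on the arrays labelled 0 h, at 7.81, 11.53 and 13.66 at 2 h, and at 7.90, 10.90 and 13.41 at 7 h. The 5 arrays labelled 24 h had 7.62, 8.31, 9.70, 12.50 and 13.48. The 4 labelled times overlapped over nearly their whole range. The mean of the 3 pig means was 10.84 ± 3.04 at 0 h, 11.07 ± 2.54 at 2 h, 10.72 ± 2.48 at 7 h and 10.22 ± 2.55 at 24 h (SD, n = 3 labelled pigs). Differences from 0 h were 0.23, -0.12 and -0.62 on the log2 scale, each with an SE of 0.77, and the limma adjusted p was 0.915 or higher.

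GBP2, the neighbouring gene, had 4.49, 7.70 and 10.71 as its lowest, median and highest log2 intensity at 0 h, 4.77, 7.33 and 10.57 at 2 h, and 4.50, 8.44 and 9.68 at 7 h. At 24 h its arrays had 4.42, 4.47, 7.01, 8.60 and 9.46. Again no labelled time stood apart. The means were 7.62 ± 2.84 at 0 h, 7.48 ± 2.74 at 2 h, 7.57 ± 2.56 at 7 h and 7.09 ± 2.30 at 24 h (SD, n = 3 labelled pigs), and the widest difference from 0 h was -0.53 at 24 h (SE 0.46, limma adjusted p = 0.914).

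UBD reached the second widest span of the 4, and its labelled times overlapped as well. Its lowest, median and highest log2 intensity were 5.17, 8.13 and 12.29 at 0 h, 4.66, 8.16 and 12.24 at 2 h, and 5.44, 9.14 and 11.74 at 7 h. At 24 h the arrays had 5.34, 5.37, 8.67, 9.71 and 9.76. The widest difference from 0 h was -0.62 at 24 h (SE 0.87, limma adjusted p = 0.918). The SD between labelled pigs at 0 h was 3.22, a spread that the pig term takes out of the test.

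TNFSF10, the TRAIL gene, had 3.20, 9.43 and 11.29 as its lowest, median and highest log2 intensity at 0 h, 3.48, 9.37 and 11.35 at 2 h, and 3.91, 8.82 and 10.96 at 7 h. At 24 h the arrays had 3.95, 4.86, 8.28, 9.03 and 11.09. The arrays of each labelled time fell far apart, with a labelled 0 h SD of 4.05 between pigs (n = 3). The widest difference from 0 h was -0.49 at 24 h (SE 0.73, limma adjusted p = 0.922).

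**Figure D1:**
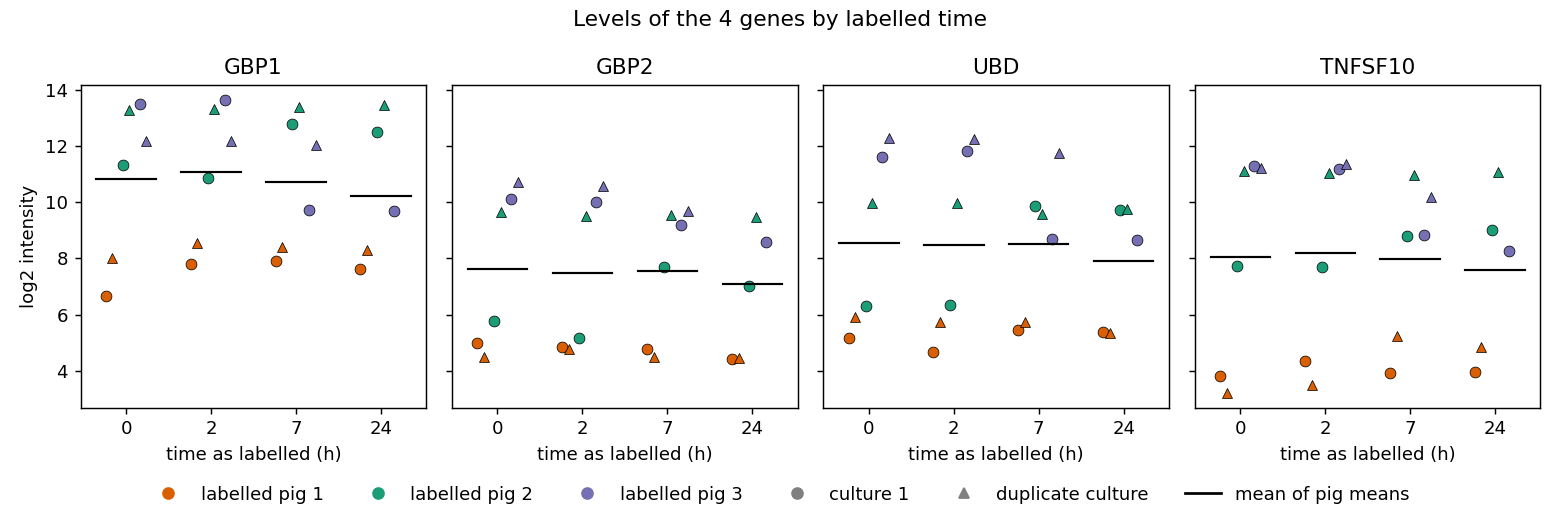
Log2 intensity (vertical axis) of GBP1, GBP2, UBD and TNFSF10 on each array, by labelled time in h (horizontal axis); colours are labelled pigs, circles and triangles the first and the duplicate culture, and bars the mean of the 3 pig means. The bars differ little between labelled times (10.22 to 11.07 for GBP1), and the 8 arrays labelled pig 1 lie lowest in every panel.

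Across the 23 arrays without regard to labels, the 4 genes covered some of the widest ranges in the series. TNFSF10 spanned 8.16 log2 units (3.20 to 11.35), UBD 7.63 (4.66 to 12.29), GBP1 6.99 (6.67 to 13.66) and GBP2 6.30 (4.42 to 10.71). They ranked 5, 7, 11 and 24 among 6765 genes, where the median gene spanned 0.96 and 13.3% of genes spanned at least 2. Since the 4 were picked from these values, their ranks describe the choice and nothing is read from them. The lowest levels of TNFSF10, UBD and GBP2 were under 5, the level below which probe sets were left out as dim in an alternative setting, so no linear fold is given. Without the 8 arrays labelled pig 1 the spans were 3.66 for TNFSF10 and 3.95 for GBP1, so a large part of both ranges rests on that label, while GBP2 and UBD then still spanned 5.57 and 5.99.

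The arrays labelled pig 1 lay below all 15 others for each of the 4 genes, which is so for 135 of 6765 genes (2.00%). This is a description with no test, because the genes were chosen for their levels on these arrays, and nothing is read from the count. TNFSF10 ran from 3.20 to 5.23 in labelled pig 1 and from 7.69 to 11.35 on the other arrays, which left a gap of 2.46 log2 units. GBP1 ran from 6.67 to 8.55 and from 9.70 to 13.66, a gap of 1.16. For UBD (4.66 to 5.92 in labelled pig 1, 6.30 to 12.29 elsewhere) and GBP2 (4.42 to 4.97, 5.15 to 10.71) the gaps were 0.38 and 0.17, since some arrays labelled pig 2 were low as well. Of the 8 arrays labelled pig 1, 6 had the high EIF1AY level and 2 the low one.

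Within labelled pig 1, many levels were dim: all 8 of GBP2 and 7 of 8 of TNFSF10 were under 5, where little change can be read. GBP2 kept to 4.42 to 4.97 on those 8 arrays (SD 0.21) and UBD to 4.66 to 5.92 (SD 0.39). GBP1 was lowest on the array of culture 1 at the labelled 0 h (6.67), and the other 7 lay between 7.62 and 8.55. TNFSF10 was lowest on the duplicate culture arrays labelled 0 h and 2 h, at 3.20 and 3.48, and highest on the duplicate culture arrays labelled 7 h and 24 h, at 5.23 and 4.86.

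Within labelled pig 2, the 4 genes did not change in step. GBP2 had 5.77, 5.15, 7.70 and 7.01 on the culture 1 arrays labelled 0, 2, 7 and 24 h, and 9.64, 9.52, 9.54 and 9.46 on the duplicate culture arrays. The culture 1 arrays were thus all lower, with 0 h and 2 h lowest. UBD had 6.30, 6.34, 9.87 and 9.71 on the culture 1 arrays, and 9.96, 9.99, 9.59 and 9.76 on the duplicates. For UBD the labelled 7 h and 24 h arrays of culture 1 were already level with the duplicates, whereas for GBP2 they lay about midway. TNFSF10 had 7.73, 7.69, 8.79 and 9.03 on culture 1 and 11.13, 11.04, 10.96 and 11.09 on the duplicates, so its culture 1 arrays also stayed below. GBP1 had 11.33, 10.86, 12.79 and 12.50 on culture 1 and 13.30, 13.34, 13.41 and 13.48 on the duplicates. By this probe set, its culture 1 arrays were lower by at most 2.48 log2 units. Another GBP1 probe set was higher on culture 1 than on the duplicate at the labelled 7 h (10.22 and 9.52) and 24 h (9.57 and 9.38). The remaining GBP1 probe set was lower on culture 1 at each labelled time.

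Within labelled pig 3, all 4 genes were lower on the culture 1 arrays labelled 7 h and 24 h than on those labelled 0 h and 2 h, GBP1 by the most and GBP2 by the least. GBP1 stood at 9.74 and 9.70 at the labelled 7 h and 24 h, against 13.52 and 13.66 at 0 h and 2 h. UBD stood at 8.68 and 8.67, against 11.60 and 11.83. TNFSF10 stood at 8.85 and 8.28, against 11.29 and 11.20. GBP2 stood at 9.19 and 8.60, against 10.12 and 10.02, a smaller step than that of the other 3. On the duplicate culture arrays labelled 0, 2 and 7 h, GBP1 had 12.19, 12.20 and 12.06 and lay below its own highest arrays. UBD had 12.29, 12.24 and 11.74 there and GBP2 10.71, 10.57 and 9.68, and the highest levels of UBD and of GBP2 in the series were among them. TNFSF10 had 11.24, 11.35 and 10.19, with its own highest level in the series at the labelled 2 h and the array labelled 7 h the lowest of the 3.

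Set against its own mean over the 23 arrays, each gene's level can be read as a deviation. On the culture 1 arrays of labelled pig 3 at 7 h and 24 h, GBP1 was below its mean by -1.02 and -1.05 log2 units, while GBP2 was above its mean by 1.80 and 1.21, TNFSF10 by 0.91 and 0.34 and UBD by 0.34 and 0.32. On the culture 1 arrays of labelled pig 2 at 0 h and 2 h GBP1 had the highest deviation of the 4 instead of the lowest: it deviated by 0.58 and 0.10, TNFSF10 by -0.21 and -0.25, GBP2 by -1.62 and -2.24 and UBD by -2.05 and -2.01. GBP1 and GBP2, neighbouring genes of 1 family, thus deviated to opposite sides of their means on these 4 arrays, and also on the culture 1 array of labelled pig 2 at 24 h (1.74 and -0.38). No test was made of these differences, since the arrays were singled out after their values were seen.

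**Figure D2:**
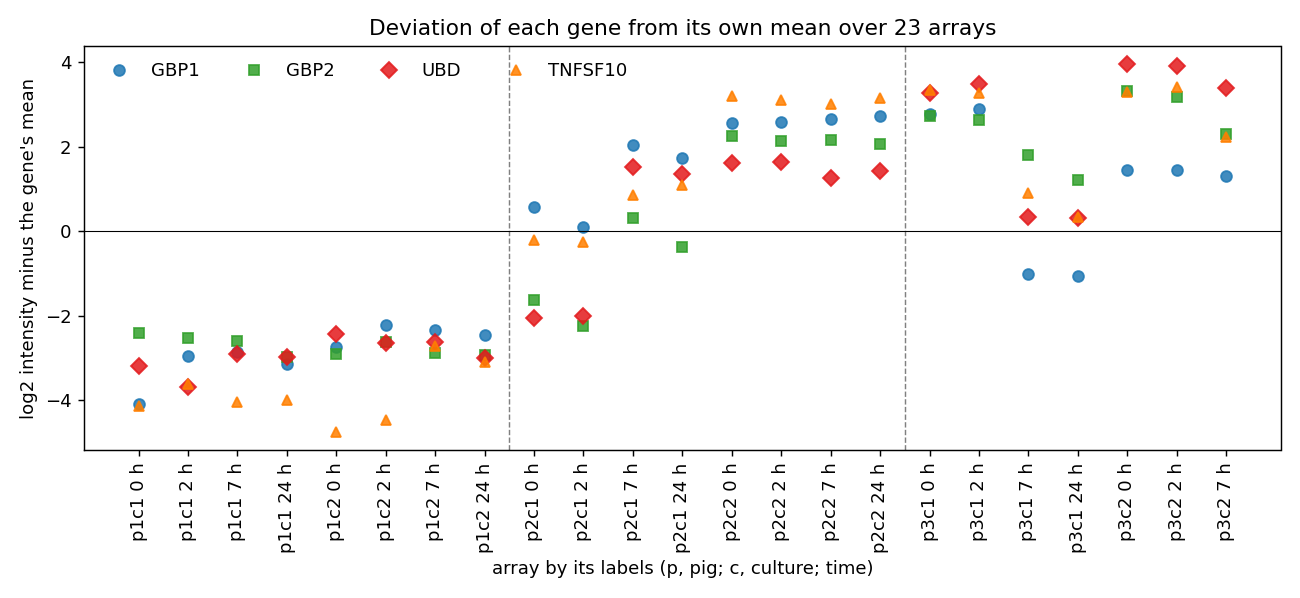
Deviation of GBP1, GBP2, UBD and TNFSF10 from their own mean log2 intensity (vertical axis) on each array, in the order of the labels (horizontal axis); dashed lines separate the labelled pigs. On the arrays labelled pig 1 all deviations are -2.21 or lower, and GBP1 alone is below its mean on the culture 1 arrays of labelled pig 3 at 7 h and 24 h.

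The spread between arrays was far wider than the difference between near-identical arrays. Between the 11 pairs of most similar arrays, picked on probe sets other than those of the 4 genes and of the lists below, GBP1 differed by a median of 0.14 log2 units and at most 1.15. GBP2 differed by a median of 0.14 and at most 0.69, UBD by 0.16 and at most 0.51, and TNFSF10 by 0.13 and at most 0.57. These pairs were picked for likeness, so their differences are a low estimate of the measurement error. Between the 11 pairs labelled as duplicate cultures the median difference was 1.33 for GBP1, 0.55 for GBP2, 0.69 for UBD and 1.32 for TNFSF10, with maxima of 2.48, 4.37, 3.66 and 3.40. At least 1 log2 unit separated the labelled duplicates in 6 of 11 pairs for GBP1 and for TNFSF10, and in 4 of 11 for GBP2 and for UBD.

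**Figure D3:**
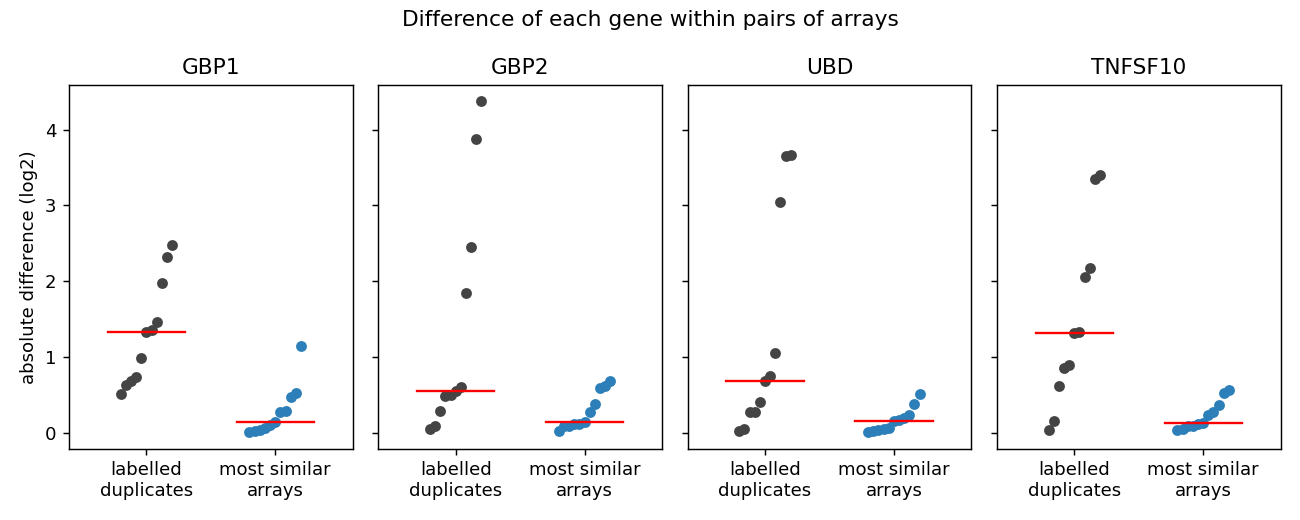
Absolute difference in log2 intensity (vertical axis) of each gene within 11 pairs of arrays labelled as duplicate cultures and within the 11 mutually nearest pairs; points are pairs and red lines medians. Labelled duplicates differed by up to 4.37 (GBP2), most similar arrays by at most 1.15 (GBP1).

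The 3 probe sets of GBP1 moved broadly together, but not on all arrays of labelled pig 2. On its duplicate culture arrays labelled 0 h and 24 h, the probe set of highest mean had 13.30 and 13.48. Another had 10.22 and 9.38 there. The one with the highest mean stood for the gene, and the others ran from 5.59 to 12.82 and from 5.01 to 10.27. After each was centred on its own mean, they differed from the first by an average of 0.17 and 0.47 log2 units per array, and by at most 0.47 and 1.31. All 3 had their lowest array at pig 1, culture 1, 0 h, and all 3 were low on the culture 1 arrays of labelled pig 3 at 7 h and 24 h (9.74 and 9.70, 8.33 and 8.28, 6.73 and 6.79). Of these probe sets 0 passed the limma F test over labelled times.

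The genes whose levels over the arrays were most like those of the 4 are given next. Likeness was the mean absolute difference per array between centred log2 values, over 23 arrays and 6764 other genes, and it is a description: the arrays are not independent, and a gene must match both the pattern and the size of the changes. The median gene lay 2.18 from GBP1, 2.28 from GBP2, 2.41 from UBD and 2.73 from TNFSF10. Nearest to GBP1 was DDX58, the cytosolic RNA sensor RIG-I (0.45), followed by STEAP4, a metalloreductase (0.61), and by CD40, a costimulatory receptor, SMAGP and USP18, an inhibitor of interferon signalling (0.70 each). Nearest to GBP2 was XAF1, an antagonist of the apoptosis inhibitor XIAP (0.27), then the exonuclease gene ISG20 (0.42), the interleukin 7 receptor gene IL7R (0.54), the prostaglandin synthase gene PTGES (0.64) and DDX60 (0.65). GBP1 itself ranked 42 for GBP2 and lay 1.06 away.

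UBD was most like ISG20 (0.66), GBP2 (0.67), XAF1 (0.69), IL7R (0.75) and the B cell chemokine gene CXCL13 (0.77). TNFSF10 was most like STEAP4 (0.66), ISG20 (0.75), the antiviral gene RSAD2 (0.83), XAF1 (0.90) and CXCL9, a chemokine gene induced by interferon gamma (0.91). Among themselves, GBP2 and UBD were closest, at 0.67. TNFSF10 lay 0.95 from GBP1, from GBP2 and from UBD alike, and GBP1 lay 1.06 from GBP2 and from UBD. The 20 nearest places were taken by 14 genes, with XAF1 and ISG20 each near 3 of the 4 and STEAP4 and IL7R near 2.

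Other genes of the pathways varied less evenly. The limma F test called 0 genes of any of the 5 lists between labelled times (lowest adjusted p = 1), and 0 passed in either direction at 2, 7 or 24 h against 0 h; all counts that follow are of ranges over the 23 arrays. Of 16 genes of the guanylate-binding family and of LPS sensing in the cytosol, 5 were named on the array. Of these, 3 spanned at least 2 log2 units (median 2.35, against 0.96 and 13.3% over all genes). CASP1, the inflammatory caspase, ran from 7.80 to 12.92. No other guanylate-binding protein was named there.

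In the interferon gamma pathway, 12 of 19 named genes spanned at least 2 (median 2.86, against 0.96 and 13.3% over all genes), and 4 of 19 had all arrays of labelled pig 1 below the others (2.00% over all genes). CXCL9 ran from 4.18 to 13.93 and IRF1, a transcription factor that switches on guanylate-binding protein genes, from 8.24 to 13.35. IRF1 differed from the 4 genes in labelled pig 1, where it reached 12.89 and overlapped the other arrays (10.44 to 13.35). The receptor gene IFNGR1 spanned 1.58 and stayed at or below 10.57. The interferon gamma gene IFNG itself stayed between 3.36 and 4.10, whereas the interferon beta gene IFNB1 ran from 3.27 to 9.08, reaching 8.74 in labelled pig 1.

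Of 19 genes of FAT10 conjugation, related modifiers and the proteasome, 10 were named and 3 spanned at least 2 (median 1.08, against 13.3% of all genes). Those 3 also had labelled pig 1 below all other arrays, as 2.00% of all genes did: NUB1, which binds FAT10 and speeds its breakdown (8.89 to 9.31 in labelled pig 1, 9.60 to 11.74 elsewhere), the ubiquitin-like modifier ISG15 (7.88 to 12.41, 12.86 to 14.55) and USP18, which removes ISG15 (7.50 to 8.60, 10.72 to 12.75). The autophagy receptor gene SQSTM1 kept to 11.86 to 12.95.

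Of 21 genes of TRAIL receptors and death signalling, 8 were named, none of them a TRAIL receptor. Of these, 3 spanned at least 2 (median 1.61, against 0.96 and 13.3% over all genes). CFLAR, which encodes the caspase-8 inhibitor c-FLIP, ran from 9.58 to 12.47 and FAS, another death receptor gene, from 6.62 to 8.71. The caspase gene CASP8 ran from 7.86 to 9.76 and the adaptor gene FADD from 9.70 to 11.02. Labelled pig 1 overlapped the other arrays for all 8, and over all genes only 2.00% had it below all others.

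Among 7 named genes of the TNF superfamily other than TNFSF10, 1 spanned at least 2 (median 0.69, against 0.96 and 13.3% over all genes). That gene was TNF, which ran from 5.42 to 12.51 in labelled pig 1 and from 6.20 to 12.56 on the other arrays, an overlap that TNFSF10 did not show. LTB, the lymphotoxin beta gene, kept to 3.97 to 4.66 on all arrays.

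**Figure D4:**
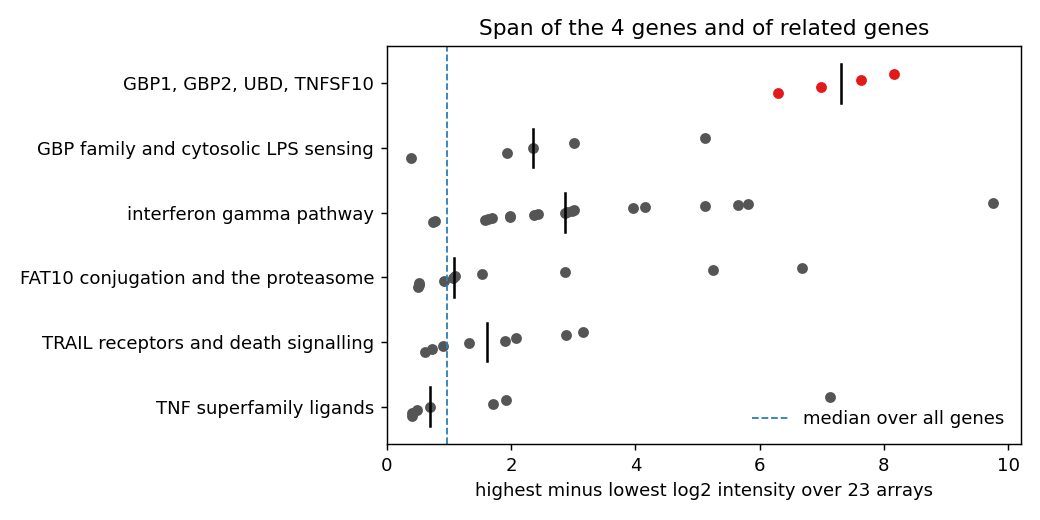
Highest minus lowest log2 intensity over the 23 arrays (horizontal axis) for the 4 genes (red) and for the named genes of each pathway list (grey); black bars are medians and the dashed line the median over all 6765 genes, 0.96. The 4 genes, chosen for their range, lie between 6.30 and 8.16, and CXCL9 at 9.75 and TNF at 7.14 are the widest of their lists.

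Markers of other cell types were measured beside these ranges. The summed intensity of the 7 named markers of T and NK cells (of 8) was 209 to 267 on the arrays labelled pig 1. It was 273 to 1628 on the others, which did not overlap. For each of the 7 markers alone, labelled pig 1 overlapped the other arrays. CD2, an adhesion receptor gene, ran from 5.18 to 10.45 in that list, while CD3E, CD3D and CD3G spanned at most 0.78. The part of such cells in the ranges of the 4 genes was not tested. In bulk RNA of this kind, fewer cells of a type and less RNA per cell cannot be told apart. The 7 macrophage markers summed to 26608 to 29469 in labelled pig 1 and 27106 to 34061 elsewhere, stromal markers (4 of 5 named) to 286 to 1288 and 289 to 1086, and granulocyte markers (4 of 6 named) to 1171 to 3645 and 1162 to 15166. Endothelial markers (4 of 4 named) summed to 1273 to 1744 and 935 to 1524, and CD79B, the 1 named B cell marker of 5, to 17 to 21 and 18 to 23. The endothelial sum was mostly PECAM1, at a log2 intensity of 9.68 to 10.70. The endothelial markers CDH5, KDR and VWF stayed at or below 4.61, 4.37 and 6.38. Likewise, the macrophage sum was mostly CTSS and AIF1. RNA quality, read as the 3′ minus the 5′ signal of the actin control, was 0.07 to 0.44 log2 units in labelled pig 1 and 0.18 to 0.49 elsewhere, and that of the GAPDH control -0.25 to -0.09 and -0.47 to -0.07. In the same measure, 2 controls named for genes that are not the pig's did not overlap: TrpnX had -2.13 to 0.02 in labelled pig 1 and 2.22 to 5.27 elsewhere, and cre had -1.03 to 1.51 and 2.04 to 3.39. The part of these controls in the levels of the 4 genes was not tested.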

How the data were processed

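The table deposited by the authors holds 1 linear intensity per probe set and array. It was made with RMA in the affy package, as named in the submitters' processing notes, with versions and genome build not given in the sources used here. RMA had corrected background and normalized between arrays, and array medians ran from 69.5 to 73.9. The number of arrays limits the precision. Intensities entered every step as log2 of the deposited values, with no further normalization. The table lists 24123 probe sets, and 124 controls among them were not tested. The platform annotation named 1 gene for 10069 of the others, several for 198 and none for 13732; identifiers were matched to the RefSeq table of Sscrofa11.1, and 0 symbols changed. For 2261 genes with several probe sets, the one of highest mean stood for the gene.

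Groups came from the labels alone, and no array was placed at a time by its column or its values. Duplicate cultures were averaged, and 12 pig-by-time means were tested with limma 3.58.1 under R 4.3.3, in a model of time plus pig, Benjamini-Hochberg adjusted over 23999 probe sets at a threshold of 0.05. The pig term follows the series description, which has the same pigs at each time. Deviations of these means correlated within labelled pigs at 0.27 to 0.97. That is a likeness of arrays with the same pig label, and it does not show that the label stands for a single animal. The fit was tested on simulated data. Named genes were the 4, the 5 most like each of them, list genes marked in advance, EIF1AY for the labels, and marker and other list genes named after their values were seen (among them IFNG, IFNB1, USP18 and CD2). The members and lists were chosen with earlier results of these data known. Promoter motifs and protein sequences were not analysed here.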

Additional observations from a re-analysis of the deposited data

How the results depend on the processing

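Counts for the 4 genes did not move with the processing: 0 of 4 passed over labelled times, and 0 of 12 differences from 0 h passed, without the replicate block for pig, with the 23 arrays unaveraged, after quantile normalization, without dim probe sets (mean log2 under 5), with all probe sets of a gene averaged, without any 1 labelled pig and without the 8 arrays against their labelled sex. The count over all 23999 probe sets was 2, with 694 at an unadjusted p under 0.05. It was 3 with no replicate block, 34 with all arrays unaveraged and each pig-by-time group as a random block, 1 after quantile normalization, 1 without the 8 arrays, and 0 to 0 without a labelled pig; the cause was not tested, beyond fewer arrays in the fits that leave some out. Spans without a labelled pig ran from 3.95 to 6.99 for GBP1, from 5.22 to 6.30 for GBP2, from 5.33 to 7.63 for UBD and from 3.66 to 8.16 for TNFSF10. Genes spanning at least 2 numbered 897, 882 after quantile normalization and 874 without dim probe sets. Labels that failed the checks limit all group comparisons.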

Other observations

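Dixon's criterion called 0 arrays as distant from the rest of their labelled time, in 16 combinations of the 4 genes and the labelled times. The criterion looks for a lone distant array. At every labelled time the lowest levels of each gene came from a pair of arrays with the same pig label. Such arrays can hide each other, so the result does not show that no low array stood apart.

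Among the 124 array control probe sets, 3 spanned at least 4 log2 units. The control probe set for the 3′ end named TrpnX ran from 4.59 to 6.34 on the arrays labelled pig 1 and from 8.98 to 11.91 on the others. Those named for the cre gene of a bacteriophage ran from 6.12 to 8.57 and from 11.25 to 13.15 at the 3′ end, and from 6.47 to 7.32 and from 7.99 to 10.68 at the 5′ end. For these 3 controls, picked for their wide span, the arrays labelled pig 1 thus lay below all others, as they did for the 4 genes. These values were looked at after the data had been seen, and their part in the levels of the 4 genes was not tested.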
